A study of Mus musculus with 6 samples.

Results

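Matrix metalloproteinases and the related ADAMTS enzymes cut the proteins and proteoglycans around cells, and TIMPs are the secreted proteins that block them. The 10 genes described here were *Timp1*, *Timp2*, *Timp3* and *Timp4* among the inhibitors, *Adamts1*, *Adamts4* and *Adamts9* among the ADAMTS proteases, and *Mmp2*, *Mmp3* and *Mmp14* among the matrix metalloproteinases. They were chosen by symbol, each symbol matched 1 row, and together they are 10 of the 32285 genes in the count tables. Their unique molecular identifiers (UMIs, single captured transcripts) were summed per library and by cell population over cells passing limits of 200 to 5000 genes and 10% mitochondrial UMIs, and are given as CPM, a gene's UMIs divided by all UMIs of that population in that library and multiplied by 1000000.

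The libraries were single-cell RNA-seq of dorsal skin cells of 6 mice, 1 library per mouse and 2 mice per group. All mice carried *Cdh5*-CreERT2, which drives recombination from the VE-cadherin promoter after tamoxifen at postnatal day (PD) 17, and a tdTomato reporter by which the cells were sorted. WT telogen mice were taken at PD20, with the hair follicles at rest, and WT anagen mice at PD32, with the follicles growing. Both WT groups also carried Krt14-H2BGFP and had the strain entry C57BL/6;CD1. The Alk1 KO group was in telogen at PD25, carried Alk1 flox/flox in place of Krt14-H2BGFP and had the strain entry C57BL/6, and one label field lists it as wild type against its title and description. The authors describe the KO cells as an earlier dataset of theirs. Loss of Alk1 (*Acvrl1*, a TGF-β family receptor of ECs) is therefore not the only difference between the KO and WT telogen. In any comparison of these groups Alk1 loss cannot be told apart from age, time since tamoxifen, strain, the Krt14-H2BGFP allele or the separate experiment. Sex was not balanced between them either.

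MMPs are made as inactive precursors and are held in check by TIMPs, which bind the active site in a tight complex. *Timp2* has a second role, since it helps membrane-bound *Mmp14* to activate the precursor of *Mmp2*, while *Timp3* stays bound to the matrix and also inhibits ADAMTS enzymes and membrane sheddases. Skin remodels its vessels and its matrix with each hair cycle, and ECs, pericytes, fibroblasts and nerve sheath cells all contribute enzymes and inhibitors.

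Between 1713 and 5106 cells per library passed, with a median of 4371 to 6935 UMIs per cell. The shallowest library was KO S2, and any pair of libraries shared 1 to 8 kept barcodes. WT telogen S1 and both KO libraries expressed *Xist*, whereas WT telogen S2 and both anagen libraries expressed Y-linked genes, so sex was not balanced over the groups. Populations were named from marker genes that included none of the members. ECs were split into Artery, Capillary, Vein, Lymph-Cap (initial lymphatics), Lymph-Col (collecting lymphatics), other lymphatic ECs and 3 EC clusters that carried too few markers for a name. EC cluster 3 was led by *Noct*, *Ctsc* and *Sema4c* beside *Adamts4*, EC cluster 10 by *Prnd*, *Apln* and *Nos2*, and EC cluster 11 by *Lrat*, *Pcp4l1* and *Tacr1*. Non-endothelial cells that the lineage sort had kept were perineurial-like, fibroblast-like, pericyte-like, Schwann-like and immune cells. Their summed level of 10 pan-endothelial markers in WT telogen was 294 and 369 CPM in perineurial-like cells and 111 and 127 in fibroblast-like cells, against 8606 and 9313 in Artery.

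The genes lie on 9 chromosomes of mm10, *Timp1* on chromosome X from 20870166 to 20874735, *Timp2* on 11 from 118301069 to 118355740, *Timp3* on 10 from 86300372 to 86349506 and *Timp4* on 6 from 115241892 to 115252205. *Adamts1* lies on 16 from 85793827 to 85803113, *Adamts4* on 1 from 171250421 to 171260637, *Adamts9* on 6 from 92772699 to 92943492, *Mmp2* on 8 from 92827291 to 92853420, *Mmp3* on 9 from 7445822 to 7455975 and *Mmp14* on 14 from 54431612 to 54445364. Exons of *Timp3* overlap *Syn3* and those of *Timp4* overlap *Syn2*, in each case on the other strand. The RefSeq windows from 250 bases before to 50 bases after the start site (GRCm38.p6) are shown for 4 members whose differences are described in detail below, *Timp3* and *Timp4* in ECs and *Timp1* and *Mmp3* in fibroblast-like cells. Capitals mark matches, on either strand, to the AP-1 motif TGANTCA, the TATA box TATAAA and the GC box GGGCGG, which are present in 7.808%, 13.62% and 35.66% of 32851 such windows.

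*Timp3* (chr10:86300162-86300461, plus strand): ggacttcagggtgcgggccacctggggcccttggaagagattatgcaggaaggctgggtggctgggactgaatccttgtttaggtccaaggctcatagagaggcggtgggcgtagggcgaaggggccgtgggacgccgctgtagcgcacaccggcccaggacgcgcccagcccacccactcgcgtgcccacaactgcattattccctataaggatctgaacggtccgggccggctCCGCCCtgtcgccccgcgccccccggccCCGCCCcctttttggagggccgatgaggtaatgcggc
*Timp4* (chr6:115252156-115252455, minus strand): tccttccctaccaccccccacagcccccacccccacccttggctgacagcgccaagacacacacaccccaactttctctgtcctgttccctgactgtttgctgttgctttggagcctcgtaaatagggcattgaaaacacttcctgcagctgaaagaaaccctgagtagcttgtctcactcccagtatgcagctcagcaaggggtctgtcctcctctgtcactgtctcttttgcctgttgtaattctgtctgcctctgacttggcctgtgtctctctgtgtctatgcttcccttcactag
*Timp1* (chrX:20869916-20870215, plus strand): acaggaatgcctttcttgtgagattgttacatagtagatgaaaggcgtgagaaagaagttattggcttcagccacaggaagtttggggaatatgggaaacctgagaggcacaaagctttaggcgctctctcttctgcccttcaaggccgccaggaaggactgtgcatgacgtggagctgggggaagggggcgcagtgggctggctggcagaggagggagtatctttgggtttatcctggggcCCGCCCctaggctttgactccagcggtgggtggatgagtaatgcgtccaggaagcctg
*Mmp3* (chr9:7445572-7445871, plus strand): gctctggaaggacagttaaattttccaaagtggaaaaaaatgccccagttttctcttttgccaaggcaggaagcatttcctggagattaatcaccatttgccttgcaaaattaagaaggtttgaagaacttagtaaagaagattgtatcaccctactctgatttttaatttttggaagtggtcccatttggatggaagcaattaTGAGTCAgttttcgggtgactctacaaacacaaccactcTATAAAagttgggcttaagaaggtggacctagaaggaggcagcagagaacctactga

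The window of *Mmp3* held an AP-1 match 46 bases before the start and a TATA box 7 bases before it, and was the only one among the 8 members with a window that held an AP-1 match. *Timp3* held a pair of GC boxes, *Timp1* held 1, and *Timp4* held none of the 3 motifs. These are matches of letters and not measured binding.

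In WT skin each inhibitor had its own distribution over the populations, and fibroblast-like cells held the highest level of 5 members (*Timp1*, *Timp2*, *Mmp2*, *Mmp3* and *Mmp14*). Levels are means ± SD over the 4 WT libraries, and they compare populations within a gene. *Timp3* was at 1467 ± 256 CPM in Artery, 1115 ± 264 in pericyte-like cells and 1087 ± 210.2 in Lymph-Cap, and these neighbours overlapped between libraries. It fell through 588 in Capillary and 375 in Vein to 84.1 in perineurial-like cells. Artery held 2 clusters, and over the 4 WT libraries *Timp3* was at 1686 to 3079 CPM in the one led by *Fez1* and *Pi16*. In the one led by *Gkn3* and *Gja5* it was at 573 to 756. *Timp4* was more restricted, at 322 ± 234 CPM in Capillary, 129 in EC cluster 3, 97.8 in pericyte-like cells, 65.8 in EC cluster 11, 47.7 in EC cluster 10, 33.3 in Artery and 16.6 in Vein. Its telogen and anagen libraries did not overlap in Capillary, as described below.

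**Figure D1:**
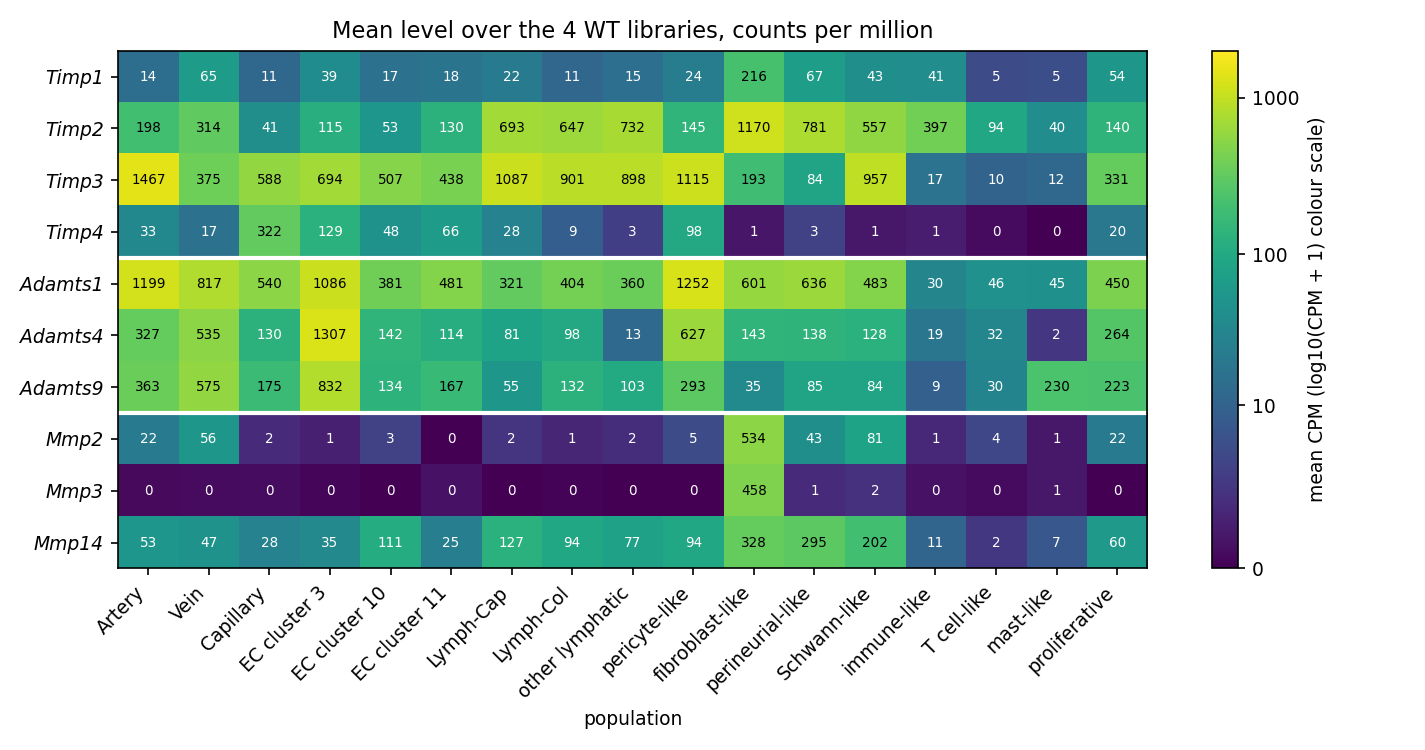
Mean level of the 10 members in 17 populations of the 4 WT libraries, with genes in rows, populations in columns and colour for CPM as given on the scale. Fibroblast-like cells carry the highest values of *Timp1*, *Timp2*, *Mmp2*, *Mmp3* and *Mmp14*, Artery the highest of *Timp3*, Capillary the highest of *Timp4*, and EC cluster 3 the highest of *Adamts4* and *Adamts9*.

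*Timp2* and *Timp1* were highest in fibroblast-like cells. *Timp2* was at 1169.8 ± 55.0 CPM in fibroblast-like cells, 781 in perineurial-like cells, 693 in Lymph-Cap and 647 in Lymph-Col, but at 41.3 in Capillary. *Timp1* was at 216 ± 58.0 CPM in fibroblast-like cells, without overlap with perineurial-like cells at 67.4 and Vein at 65.3, and the latter 2 overlapped.

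The 3 ADAMTS proteases were highest in vascular populations. *Adamts1*, which cleaves versican and aggrecan, was at 1252 ± 154 CPM in pericyte-like cells and 1199 ± 134 in Artery, which overlapped. *Adamts4*, an aggrecanase, reached 1307 ± 407 CPM in EC cluster 3, whose 4 libraries (785 to 1678) lay above every other population, followed by pericyte-like cells at 627 and Vein at 535. *Adamts9* was at 832 ± 324 CPM in EC cluster 3 and 575 in Vein, which overlapped, and at 35.5 in fibroblast-like cells.

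Of the metalloproteinases, *Mmp3* (stromelysin 1, which activates other MMPs) was found almost entirely in one population. It was at 458 ± 54.9 CPM in fibroblast-like cells, at 1.94 in Schwann-like cells as the next population, and without a UMI in 5 populations. *Mmp2* (gelatinase A, which cleaves type IV collagen of basement membranes) was at 534 ± 82.1 CPM in fibroblast-like cells, 81.4 in Schwann-like cells, 55.6 in Vein and 43.2 in perineurial-like cells. *Mmp14* was shared between fibroblast-like cells at 328 ± 22.0 CPM and perineurial-like cells at 295 ± 48.8, which overlapped, and was at 127 in Lymph-Cap.

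The same ordering was seen per cell. After thinning each cell to 1500 UMIs, 66.7% (95% CI 64.6 to 68.7%) of WT Artery cells had a UMI of *Timp3* (86.2% unthinned), against 0.331% of T cell-like cells, which should lack it. *Mmp3* was found in 24.2% (95% CI 20.5 to 28.3%) of fibroblast-like cells (46.3% unthinned) and 0.0830% of perineurial-like cells. *Adamts4* was found in 66.2% of cells of EC cluster 3 (86.0% unthinned) and 9.41% of Capillary cells. These exact binomial intervals cover counting error only.

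Sums per library were then compared between populations within the 4 WT libraries, with the library as a block, by edgeR's quasi-likelihood test with Benjamini-Hochberg adjustment over all genes. A gene was called at adjusted p under 0.05 and fold over 1.3, and all adjusted p-values below come from this test unless DESeq2 is named. Perineurial-like cells differed from the pooled ECs in 8 of 9 tested members, where 64.0% of all genes differed. *Timp2* (log2 fold change 1.28 ± 0.13 SE, adjusted p = 1.9e-05), *Timp1*, *Mmp2* and *Mmp14* (log2 fold change 2.28 ± 0.21 SE, adjusted p = 7.32e-06) were higher, whereas *Timp3* (log2 fold change -3.44 ± 0.22 SE, adjusted p = 5.91e-07), *Timp4*, *Adamts4* and *Adamts9* were lower. *Mmp14*, *Timp2* and *Mmp2*, the trio that works together in activating *Mmp2*, were thus all higher in perineurial-like cells than in the pooled ECs, by 2.28, 1.28 and 1.45 on the log2 scale. This does not hold against every population, as *Mmp2* was at 43.2 CPM in perineurial-like cells, 55.6 in Vein and 81.4 in Schwann-like cells. Fibroblast-like cells exceeded perineurial-like cells in 7 members, foremost *Mmp3* (log2 fold change 8.80 ± 0.19 SE, adjusted p = 4.91e-11) and *Mmp2* (log2 fold change 4.01 ± 0.12 SE, adjusted p = 4.52e-10), and were lower in *Timp4* and *Adamts9*, with 51.4% of all genes called. Of these calls, *Adamts4* was lost without telogen S2 (log2 fold change 0.34, adjusted p = 0.0621). Clusters made without correction between libraries lost *Adamts4* and *Mmp14*, and DESeq2 lost *Timp4*. The CPM of the 2 populations overlapped between libraries for *Adamts4*, with means of 143 in fibroblast-like and 138 in perineurial-like cells, and for *Mmp14*, with means of 328 and 295.

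Among ECs, lymphatic ECs and blood ECs differed in 8 of 9 tested members, with 48.5% of all genes called. Blood ECs here and below were the pooled cells of Artery, Capillary and Vein, without the 3 unnamed EC clusters. Lymphatic ECs were higher in *Timp2* (log2 fold change 1.77 ± 0.12 SE, adjusted p = 7.98e-09) and *Mmp14* (log2 fold change 1.11 ± 0.10 SE, adjusted p = 1.51e-07). They were lower in *Timp1*, *Timp4*, *Mmp2* and all 3 ADAMTS members, with *Adamts4* as an example (log2 fold change -2.06 ± 0.09 SE, adjusted p = 1.1e-10). *Timp3* was not called (log2 fold change 0.11 ± 0.10 SE, adjusted p = 0.397). Within blood ECs, Artery was called in 5 of 9 members against 37.5% of all genes, being higher in *Timp3* (log2 fold change 1.70 ± 0.09 SE, adjusted p = 1.44e-08), *Adamts1* (log2 fold change 0.85 ± 0.09 SE, adjusted p = 1.08e-05) and *Mmp14*, and lower in *Timp1* and *Timp4*. The call of *Mmp14* was lost without anagen S1 (log2 fold change 0.34, adjusted p = 0.0563). Pericyte-like cells were called in 5 of 9 members against 27.5% of all genes, higher than ECs in *Adamts1*, *Adamts4* and *Mmp14* and lower in *Timp2* and *Mmp2*. Of these, *Adamts4* was lost without telogen S1, telogen S2 or anagen S1, at adjusted p of 0.106, 0.0991 and 0.113, and *Mmp2* without telogen S2 (log2 fold change -1.22, adjusted p = 0.122).

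Anagen was compared with telogen in WT mice, and few members were called. Stage cannot be told apart from age (PD20 and PD32) or from time since tamoxifen at PD17, and sex was not balanced. With 2 mice per group, a member that was not called is not shown to be unchanged. Over 17 populations, 122 tests of members gave 1 call higher and 4 lower at anagen, where 0.489% and 0.158% of all tests were called higher and lower. All 4 lower calls were of *Timp4*, in Capillary, Vein and EC clusters 3 and 11. These counts were not stable to leaving out 1 library, with 6 higher and 2 lower without telogen S1, 4 and 2 without telogen S2, 8 and 7 without anagen S1 and 5 and 13 without anagen S2, where the lone sample was assumed to vary like the pair. In Capillary, *Timp4* was at 376 and 631 CPM in the pair of telogen libraries (S1, then S2) and at 158 and 124 in the anagen pair (log2 fold change -1.80 ± 0.24 SE, adjusted p = 0.00619). In Vein it was at 23.0 and 40.6 CPM in telogen and 1.89 and 1.04 in anagen (log2 fold change -4.38 ± 0.45 SE, adjusted p = 0.00463).

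Of the 3 unnamed EC clusters, *Timp4* was lower at anagen in 2 and was not tested in EC cluster 10, at 116 and 31.2 CPM in telogen and 28.1 and 15.8 in anagen. In EC cluster 3 it was at 180.4 and 273 CPM in telogen and 42.8 and 17.4 in anagen (log2 fold change -2.79 ± 0.38 SE, adjusted p = 0.0124), and in EC cluster 11 at 136 and 113 in telogen and 9.05 and 4.97 in anagen (log2 fold change -4.10 ± 0.52 SE, adjusted p = 0.00879). The call in EC cluster 3 was lost without telogen S1 (log2 fold change -3.06, adjusted p = 0.381) or S2 (log2 fold change -2.48, adjusted p = 0.306). That in EC cluster 11 was lost without S1 (log2 fold change -3.77, adjusted p = 0.358) or S2 (log2 fold change -4.09, adjusted p = 0.207). Artery, at 30.7 and 50.2 CPM in telogen and 35.4 and 16.8 in anagen, was not called (log2 fold change -0.52 ± 0.36 SE, adjusted p = 0.523), and its groups overlapped. Neither was Lymph-Cap called, at 34.0 and 26.6 CPM in telogen and 22.7 and 30.2 in anagen. Without WT telogen S1, which leaves libraries that all express Y-linked genes, the log2 fold change of *Timp4* in Capillary was -2.13. That fit holds a lone telogen library with no spread of its own, and the part of sex was not tested. The call in Capillary was lost with a finer clustering (log2 fold change -1.73, adjusted p = 0.0555). It was also lost with clusters made without correction between libraries (log2 fold change -1.51, adjusted p = 0.0583).

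Capillary ECs were made of 2 clusters, and nearly all *Timp4* lay in one of them. The cluster led by *Car4* and *Aqp7*, 79.8% and 83.2% of telogen and 75.0% and 88.5% of anagen Capillary cells, had 589 and 913 CPM of *Timp4* in telogen and 228 and 146 in anagen. The cluster led by *Esm1* and *Itm2a* had 5.49 and 11.6 CPM in telogen and 9.04 and 7.26 in anagen. The groups did not overlap within the *Car4* cluster. After thinning, the share of Vein cells with a UMI of *Timp4* was 4.07% in telogen and 0.449% in anagen.

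No other member was called in an EC population between the stages. The single higher call, *Timp3* in immune-like cells, rose from 7.48 and 9.02 CPM to 23.8 and 27.1 (log2 fold change 1.84 ± 0.22 SE, adjusted p = 0.0369), and in the same sums the pan-endothelial marker list rose from 86.9 and 81.5 to 234 and 481 CPM, whose part in the result was not tested. The call was lost under 4 alternatives, among them removal of likely doublets (log2 fold change 1.46, adjusted p = 0.113) and leaving out anagen S1 (log2 fold change 1.88, adjusted p = 0.0551). *Mmp3* in fibroblast-like cells was at 428 and 528 CPM in telogen and 404 and 474 in anagen (log2 fold change -0.04 ± 0.16 SE, adjusted p = 0.956). In EC cluster 3, *Timp2* stood at 74.4 and 87.4 CPM in telogen and 126 and 172 in anagen (log2 fold change 1.02 ± 0.22 SE, adjusted p = 0.0529). *Adamts9* stood at 956 and 1222 in telogen and 485 and 664 in anagen (log2 fold change -0.79 ± 0.18 SE, adjusted p = 0.0609), and both missed the threshold although their groups did not overlap. Neither the stage effect in perineurial-like cells nor that in lymphatic ECs differed from that in blood ECs for any of 9 members by edgeR's interaction test, where 0.531% and 0.102% of all genes were called. DESeq2 gave 0 calls in both as well, and at an unadjusted p under 0.05 edgeR gave 4 members in perineurial-like cells (*Timp3*, *Adamts4*, *Mmp2* and *Mmp14*) and 1 in lymphatic ECs (*Timp4*).

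The comparison of KO with WT telogen gave more calls. Over 15 populations, 107 tests of members gave 16 calls higher and 14 lower in the KO, where 7.98% of all tests were higher and 9.41% lower. Among the higher calls 10 were of *Timp3* and 4 of *Timp4*. The higher calls numbered 25 without KO S2, and the lower calls 9 without either WT telogen library. *Acvrl1* itself was at 312 and 281 CPM in WT telogen and 316 and 258 in KO Artery (log2 fold change -0.04 ± 0.16 SE, adjusted p = 0.894), and at 205 and 173 in WT telogen and 100.4 and 86.1 in KO Capillary (log2 fold change -1.22 ± 0.19 SE, adjusted p = 0.000613). The libraries read the 3′ ends of transcripts, and where the floxed part lies is not given in the sources used here, so these levels do not check the label.

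*Timp3* was higher in the KO in 8 of the 9 EC populations. In Vein it was at 295 and 445 CPM in WT telogen S1 and S2 and 1606 and 1528 in KO S1 and S2 (log2 fold change 2.07 ± 0.19 SE, adjusted p = 7.33e-06). In Capillary it was at 607 and 636 in WT telogen and 3198 and 2298 in the KO (log2 fold change 1.95 ± 0.21 SE, adjusted p = 5.6e-05), and in Artery at 1528 and 1804 in WT telogen and 2936 and 2626 in the KO (log2 fold change 0.74 ± 0.14 SE, adjusted p = 0.00340). Both KO libraries lay above both WT libraries in each of these populations. In Capillary the call was lost without WT telogen S2 (log2 fold change 1.96, adjusted p = 0.0706) and without correction between libraries (log2 fold change 1.28, adjusted p = 0.0956), while those in Vein and Artery held under all 16 alternatives. In the Capillary sums 5 mast cell markers summed to 13.0 and 15.8 CPM in WT telogen and 177 and 340.3 in the KO, with 3 of them at 0 in KO S2, and their part there was not tested.

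Lymphatic vessels changed in the same direction. *Timp3* in Lymph-Cap was at 1132 and 1366 CPM in WT telogen and 3445 and 2986 in the KO (log2 fold change 1.36 ± 0.15 SE, adjusted p = 0.000101), and in Lymph-Col at 773 and 1038 in WT telogen and 2737 and 2304 in the KO (log2 fold change 1.41 ± 0.16 SE, adjusted p = 0.000474). EC clusters 3, 10 and 11 were also called, with log2 fold changes of 1.45, 1.93 and 1.92, while other lymphatic ECs missed the threshold (log2 fold change 0.88 ± 0.24 SE, adjusted p = 0.0632). The share of Vein cells with a UMI of *Timp3* after thinning was 35.9% in WT telogen and 81.7% in the KO. The KO effect on *Timp3* in lymphatic ECs was not called as different from that in blood ECs.

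**Figure D2:**
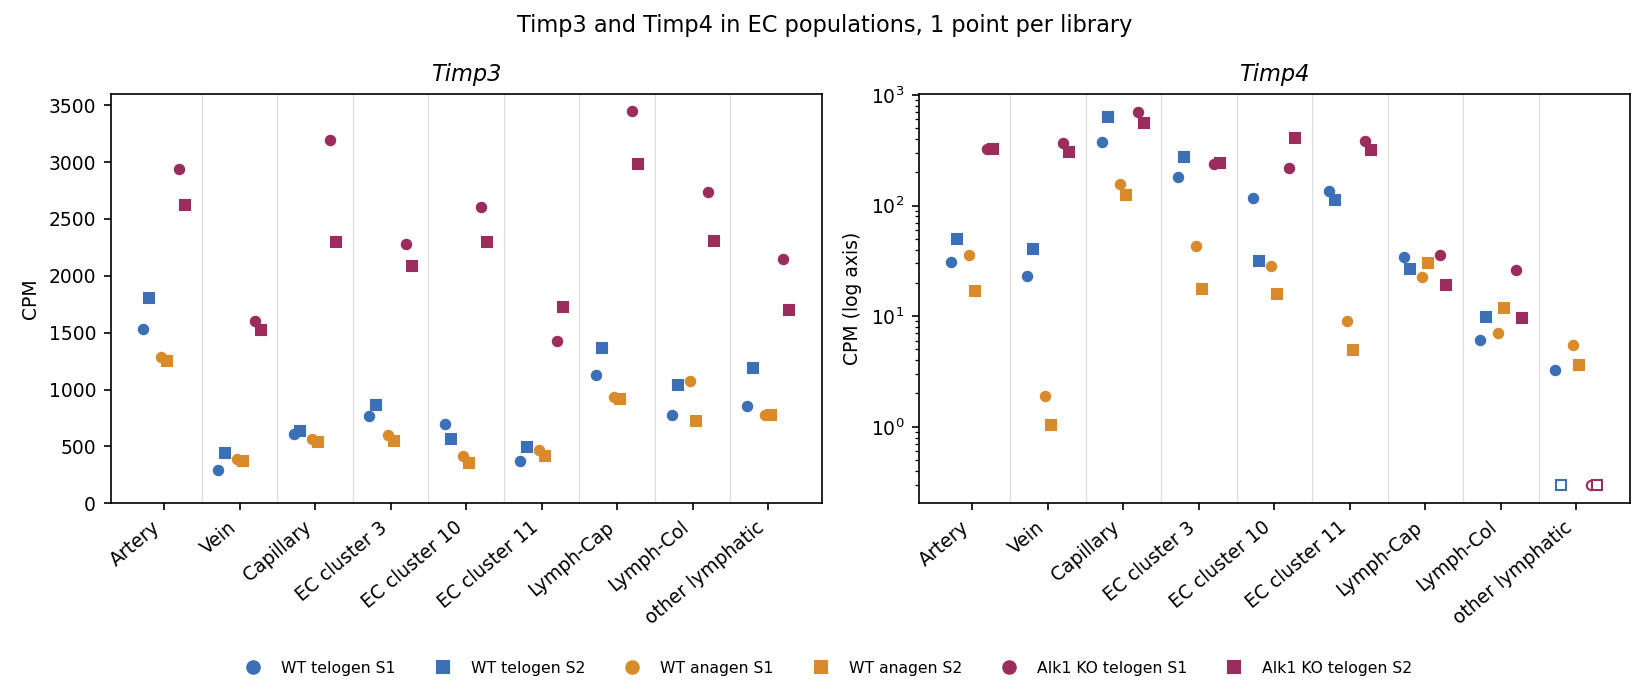
*Timp3* (linear axis) and *Timp4* (log axis) in CPM in each library of 9 EC populations, 1 point per mouse, with open symbols for libraries without a UMI. For *Timp3* both KO points lie above both WT telogen points in all 9 populations, and for *Timp4* the KO stands apart from WT telogen in Vein and Artery but not in Capillary.

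Artery and Vein each held 2 clusters whose shares differed between KO and WT telogen, and both KO libraries lay above both WT telogen libraries for *Timp3* within each of them. The arterial cluster led by *Fez1* and *Pi16* was 50% and 46.6% of WT telogen and 38.7% and 28.6% of KO Artery cells, and the cluster led by *Gkn3* and *Gja5* was the rest. *Timp3* was at 2388 and 3079 CPM in WT telogen and 3652 and 3349 in the KO in the first, and at 573 and 756 in WT telogen and 2492 and 2265 in the KO in the second. In Vein, most WT telogen cells were in the cluster led by *Sele* and *Ackr1* and most KO cells in the cluster led by *Htr2b* and *Klk8*, as 36.4% and 37.4% of WT telogen and 53.7% and 54.9% of KO Vein cells were in the latter. *Timp3* was at 305 and 503 CPM in WT telogen and 1448 and 1655 in the KO in the *Sele* cluster, and at 274 and 329.7 in WT telogen and 1863 and 1344 in the KO in the *Htr2b* cluster.

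Outside the endothelium the increase of *Timp3* was found in fibroblast-like cells, at 169.9 and 174 CPM in WT telogen and 479 and 454 in the KO (log2 fold change 1.10 ± 0.20 SE, adjusted p = 0.00312), a call lost without correction between libraries (log2 fold change 0.48, adjusted p = 0.134). Pericyte-like cells (log2 fold change 0.66 ± 0.28 SE, adjusted p = 0.175) and perineurial-like cells (log2 fold change 0.20 ± 0.31 SE, adjusted p = 0.691) were not called. The call in immune-like cells, 7.48 and 9.02 CPM in WT telogen and 21.7 and 128 in the KO, was lost without KO S2, at adjusted p = 0.152. In the same sums the pan-endothelial list was at 86.9 and 81.5 CPM in WT telogen and 211 and 105 in the KO, whose part was not tested. The summed level of 16 dissociation and stress genes overlapped between the groups in Vein and in Artery, and its part in the *Timp3* values there was not tested. In Lymph-Cap the list summed to 15729 and 13090.5 CPM in WT telogen and 19669 and 18371 in the KO, and in Lymph-Col to 25918 and 22574 in WT telogen and 32156 and 33294 in the KO, whose part there was not tested.

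*Timp4* was called higher in the KO in 4 EC populations, Vein, Artery and EC clusters 10 and 11. In Vein it was at 23.0 and 40.6 CPM in WT telogen and 364 and 307 in the KO (log2 fold change 3.39 ± 0.24 SE, adjusted p = 5.62e-07), and in Artery at 30.7 and 50.2 in WT telogen and 324 and 326 in the KO (log2 fold change 3.02 ± 0.20 SE, adjusted p = 3.68e-06). The call in Vein held under all 16 alternatives, and that in Artery under all but clusters made without correction between libraries (log2 fold change 0.84, adjusted p = 0.383). In Capillary, where WT telogen stood at 376 and 631 CPM, the KO stood at 699 and 555 (log2 fold change 0.12 ± 0.24 SE, adjusted p = 0.731), and the groups overlapped. EC clusters 10 (log2 fold change 2.41 ± 0.68 SE, adjusted p = 0.0492) and 11 (log2 fold change 1.52 ± 0.41 SE, adjusted p = 0.0411) were called as well, but each lost the call under 5 alternatives, leaving out WT telogen S2 among them, and cluster 10 held 5 cells in KO S1 and 26 in KO S2. Lymph-Cap overlapped, at 34.0 and 26.6 CPM in WT telogen and 35.6 and 19.1 in the KO.

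Within Capillary the values of the 2 clusters are given without a test. The *Car4* cluster had 589 and 913 CPM of *Timp4* in WT telogen and 733 and 577 in the KO. The *Esm1* cluster had 5.49 and 11.6 in WT telogen and 346 and 89.3 in the KO, from 15 and 5 KO cells. In Vein the KO libraries lay above the WT telogen libraries in both clusters, with 328 and 326 against 21.4 and 36.2 CPM in the *Sele* cluster and 423 and 279.9 against 26.4 and 49.2 in the *Htr2b* cluster. After thinning, 4.07% of WT telogen and 25.3% of KO Vein cells had a UMI of *Timp4*, and 6.87% and 31.6% of Artery cells.

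**Figure D3:**
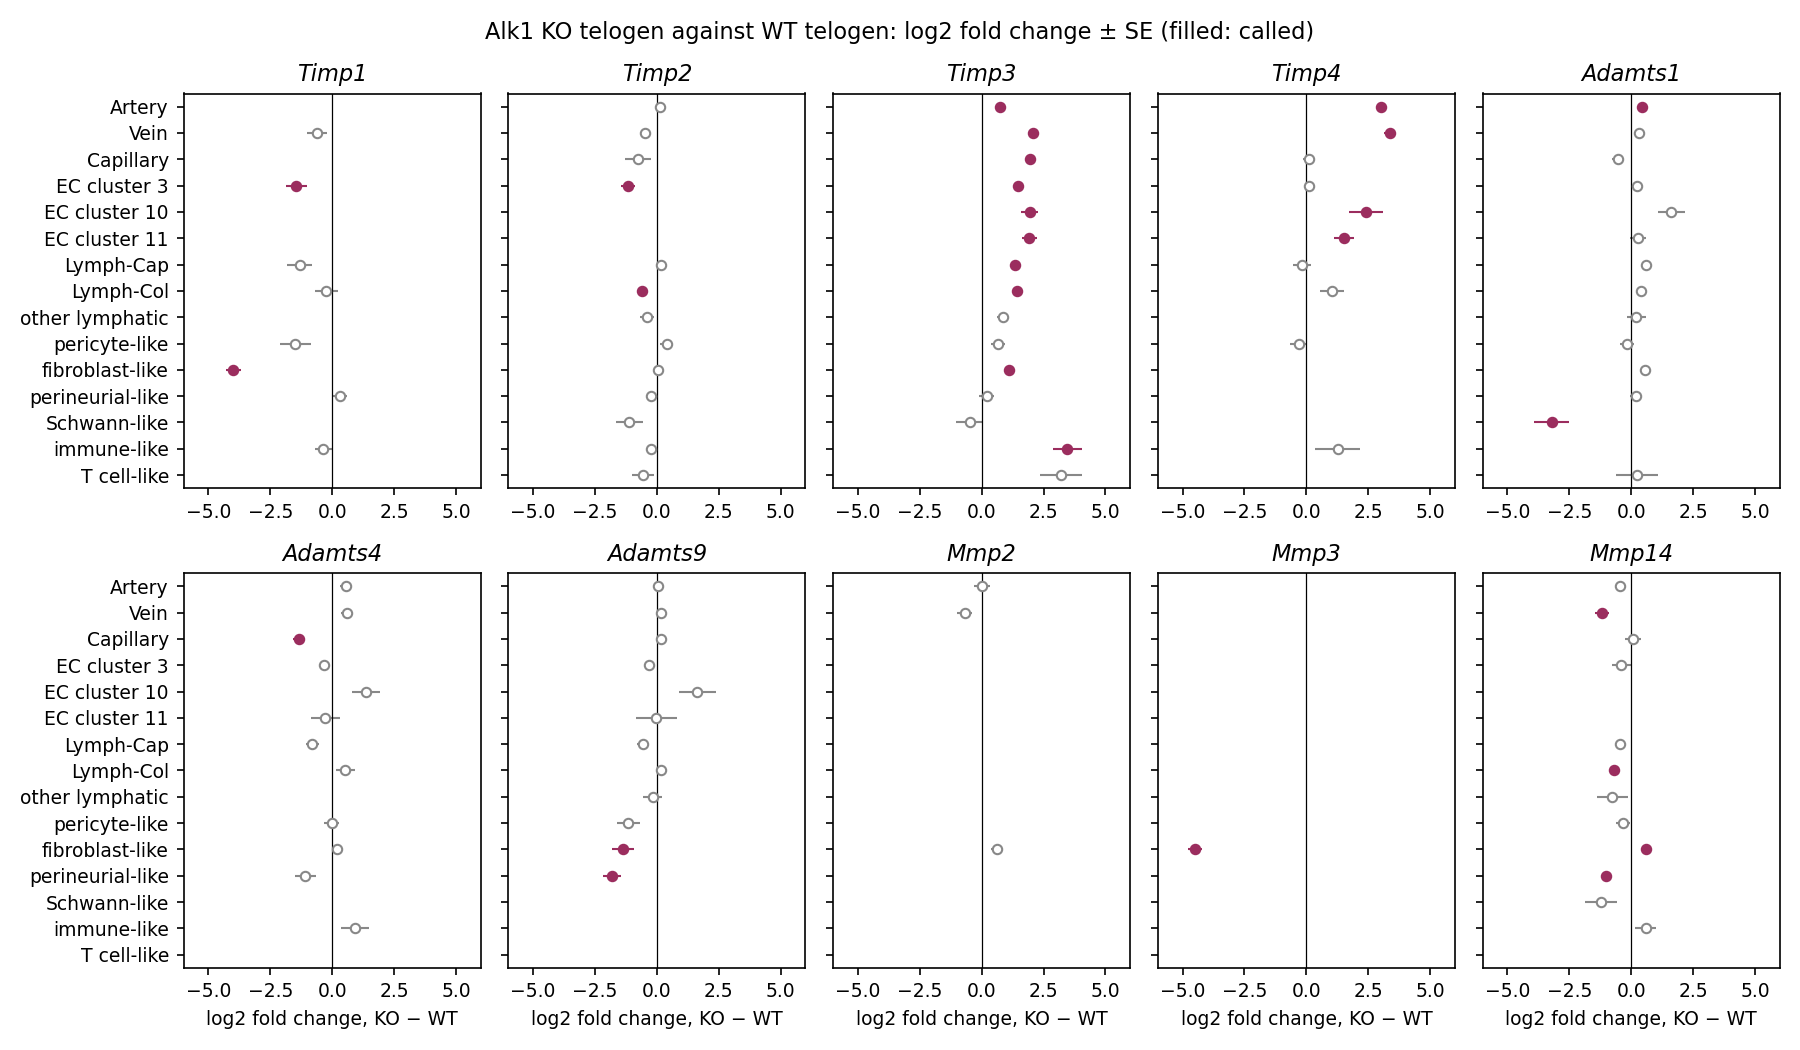
Log2 fold change of KO over WT telogen with its standard error for each member (panel) in each tested population, with filled points for calls at adjusted p under 0.05 and fold over 1.3. Tests with 0 to 3 UMIs in a group are not drawn, among them the calls of *Adamts1* in immune-like and *Mmp2* in perineurial-like cells, and *Timp3* is above 0 in nearly every population.

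*Timp1* and *Mmp3* fell in the KO in fibroblast-like cells, the population in which both were highest in WT mice. *Mmp3* was at 428 and 528 CPM in WT telogen and 25.1 and 28.1 in the KO (log2 fold change -4.49 ± 0.28 SE, adjusted p = 3.3e-05), and *Timp1* at 238 and 288 in WT telogen and 25.1 and 18.1 in the KO (log2 fold change -3.99 ± 0.29 SE, adjusted p = 5.59e-05). Both KO libraries lay below both WT libraries for either gene, and both calls held under all 16 alternatives. *Mmp14* was higher, at 344 and 321 CPM in WT telogen and 602 and 673 in the KO (log2 fold change 0.60 ± 0.20 SE, adjusted p = 0.0435), though the call was lost under 7 alternatives. *Mmp2* stood at 473 and 519 CPM in WT telogen and 1015 and 883 in the KO without overlap but missed the threshold (log2 fold change 0.60 ± 0.21 SE, adjusted p = 0.0521), and *Adamts9* was lower (log2 fold change -1.38 ± 0.45 SE, adjusted p = 0.0364), a call lost with DESeq2, with likely doublets removed, without WT telogen S2 (log2 fold change -1.06, adjusted p = 0.313) and without KO S2 (log2 fold change -1.25, adjusted p = 0.0938). Normalisation moved log2 fold changes in these cells by -0.34 from plain CPM.

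The fibroblast-like cells of the KO also differed in other ways. They numbered 40 and 63, against 146 and 194 in WT telogen, and 6 of 9 fibroblast markers were lower and 2 higher in both KO libraries, with the list summing to 68647 and 64010.4 CPM in WT telogen and 22599.9 and 15385 in the KO. Mean CPM in WT telogen and then the KO was 26087.5 and 427 for *Col3a1*, 24763 and 1723 for *Col1a1* and 1925 and 222 for *Lum*. The 2 higher markers were *Dcn*, at 10400 and 15006.5, and *Pdgfra*, at 150 and 551. The dissociation and stress list summed to 11445 and 10261 CPM in WT telogen and 28748 and 26939.6 in the KO. A list of 3 adipocyte markers (*Adipoq*, *Plin1* and *Cfd*) summed to 4.47 and 3.37 CPM in WT telogen and 990.2 and 6296 in the KO. In the 35 and 53 KO cells without a UMI of these 3 genes, *Mmp3* was at 27.1 and 37.2 CPM and *Timp1* at 27.1 and 23.9, again below all WT libraries. The part of the stress list, of the fibroblast markers and of the adipocyte markers in the result was not tested. *Timp1* is X-linked, and WT telogen S1 expressed *Xist* like the KO libraries while WT telogen S2 did not. The part of sex in the *Timp1* values was not tested.

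**Figure D4:**
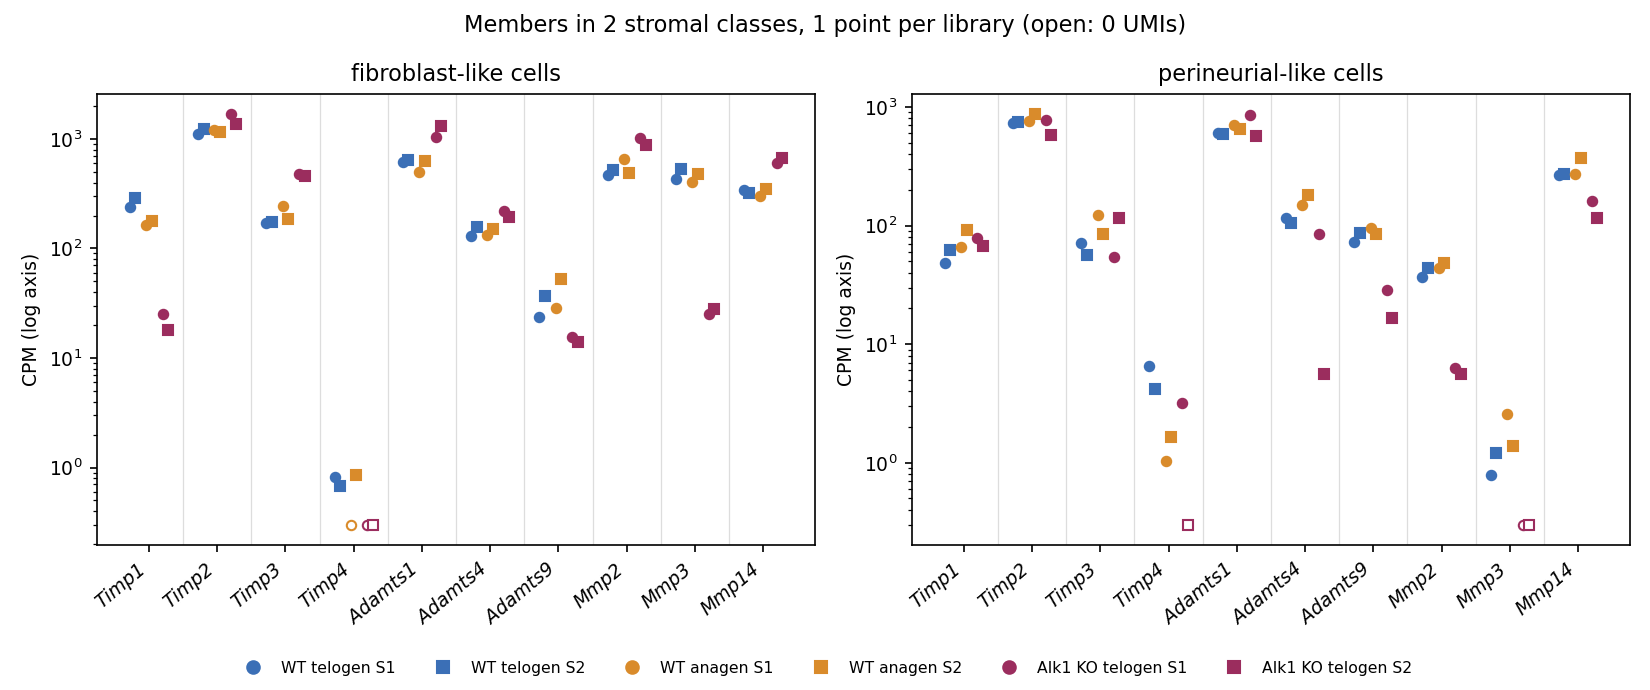
Level of the members in fibroblast-like and perineurial-like cells in CPM on a log axis, 1 point per library, with open symbols for libraries without a UMI. *Timp1* and *Mmp3* in fibroblast-like cells lie between 18.1 and 28.1 CPM in the KO libraries and between 163 and 528 in the 4 WT libraries.

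Perineurial-like cells, the nerve sheath cells of the lineage, had less *Mmp14*, *Adamts9* and *Mmp2* in the KO. *Mmp14* was at 267 and 272 CPM in WT telogen and 162 and 117 in the KO (log2 fold change -1.0 ± 0.23 SE, adjusted p = 0.00684), and *Adamts9* at 73.1 and 86.3 in WT telogen and 28.5 and 16.6 in the KO (log2 fold change -1.81 ± 0.37 SE, adjusted p = 0.00319). Both calls held under all 16 alternatives, but the KO sums were small. They held 315494 and 180233 UMIs of all genes from 80 and 54 cells of KO S1 and S2, against 544 and 855 cells in WT telogen. *Adamts9* had 9 and 3 UMIs in KO S1 and S2. *Mmp2* was at 36.7 and 44.0 CPM in WT telogen and 6.34 and 5.55 in the KO, with 3 UMIs over both KO libraries and a WT over KO ratio of 6.74 with a 95% counting interval of 2.29 to 32.8. Its adjusted p by edgeR was 0.00389, and the call was lost without WT telogen S2 (log2 fold change -2.69, adjusted p = 0.0667). *Adamts4*, 115 and 105 CPM in WT telogen, was at 85.6 and 5.55 in KO S1 and S2 and was not called (log2 fold change -1.08 ± 0.43 SE, adjusted p = 0.0877). In the same cells 6 of 10 perineurial markers were lower and 2 higher in both KO libraries, and the dissociation and stress list summed to 22358 and 18392 CPM in WT telogen and 25091 and 23214 in the KO, whose part was not tested.

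Some of these effects differed between lineages by edgeR's interaction test. In pooled blood ECs *Adamts9* was at 405 and 446 CPM in WT telogen and 529.8 and 437 in the KO, and *Adamts4* at 345 and 347 in WT telogen and 632 and 333 in the KO. The KO effect on *Adamts9* was lower in perineurial-like cells than in blood ECs (log2 fold change -1.96 ± 0.38 SE, adjusted p = 0.00201), as was that on *Adamts4* (log2 fold change -1.62 ± 0.35 SE, adjusted p = 0.00536), 2 of 9 members where 5.57% of all genes were called. The perineurial-like KO sums came from 80 and 54 cells, with *Adamts4* far apart at 85.6 and 5.55 CPM. The KO effect on *Adamts4* within perineurial-like cells was itself not called. *Timp3* missed the threshold (log2 fold change -1.09 ± 0.33 SE, adjusted p = 0.0506). In lymphatic ECs the KO effect was lower than in blood ECs for *Adamts4* (log2 fold change -0.64 ± 0.16 SE, adjusted p = 0.00676) and *Adamts9* (log2 fold change -0.73 ± 0.16 SE, adjusted p = 0.00200), and higher for *Mmp2* (log2 fold change 2.53 ± 0.57 SE, adjusted p = 0.00221), 3 of 9 members where 19.8% of all genes were called. The call of *Adamts4* there was lost without WT telogen S1 (log2 fold change -0.58, adjusted p = 0.126) and at the finer clustering, and that in perineurial-like cells with DESeq2 (log2 fold change -2.06, adjusted p = 0.158). In lymphatic ECs *Adamts9* was at 116 and 129 CPM in WT telogen and 84.1 and 85.2 in the KO. *Mmp2* there rests on 5 and 3 UMIs in WT telogen, 1.79 and 1.17 CPM, against 3.54 and 9.55 in the KO, and its call was lost with DESeq2, without WT telogen S2 (log2 fold change 1.77, adjusted p = 0.0817) and without KO S2 (log2 fold change 1.73, adjusted p = 0.0763).

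The remaining calls in ECs were of *Mmp14*, *Timp2*, *Timp1*, *Adamts1* and *Adamts4*. *Mmp14* fell in Vein, from 56.4 and 49.7 CPM in WT telogen to 25.7 and 21.5 in the KO (log2 fold change -1.16 ± 0.28 SE, adjusted p = 0.00801), and in Lymph-Col, from 119 and 107 in WT telogen to 62.1 and 84.7 in the KO (log2 fold change -0.67 ± 0.19 SE, adjusted p = 0.0385). Both were lost with DESeq2 and without WT telogen S1 (log2 fold change -1.06 in Vein and -0.60 in Lymph-Col). That in Vein was also lost with cells of at least 500 genes and under 5% mitochondrial UMIs, and without correction between libraries. That in Lymph-Col was also lost without the filter on low counts, at the finer clustering, with all 6 libraries in the fit and without KO S1 (log2 fold change -0.46). *Timp2* fell in Lymph-Col, from 610.2 and 644 CPM in WT telogen to 456 and 408 in the KO (log2 fold change -0.60 ± 0.14 SE, adjusted p = 0.0192) and in EC cluster 3 (log2 fold change -1.17 ± 0.30 SE, adjusted p = 0.0105), and *Timp1* in EC cluster 3 (log2 fold change -1.45 ± 0.43 SE, adjusted p = 0.0252). The call of *Timp2* in Lymph-Col was lost without WT telogen S1 or S2 (log2 fold change -0.65, adjusted p = 0.0614 and log2 fold change -0.57, adjusted p = 0.123). *Timp2* in EC cluster 3 was lost with DESeq2 and without WT telogen S2 (log2 fold change -1.08). That of *Timp1* was lost with DESeq2, with the stricter cell limits just named and with all 6 libraries in the fit. It was also lost without WT telogen S1 or KO S1 (log2 fold change -1.06 and -1.19). *Adamts1* rose in Artery, from 1265 and 1173 CPM in WT telogen to 1546 and 1794 in the KO (log2 fold change 0.46 ± 0.14 SE, adjusted p = 0.0409), a call lost under 7 alternatives.

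*Adamts4* fell in Capillary, whose make-up also differed between the groups. It was at 119 and 188 CPM in WT telogen and 72.5 and 65.2 in the KO (log2 fold change -1.34 ± 0.24 SE, adjusted p = 0.00143), a call lost without WT telogen S2 and without correction between libraries. The *Esm1* cluster, with 189 and 388 CPM in WT telogen, was 20.2% and 16.8% of WT telogen and 6.47% and 2.03% of KO Capillary cells. In the *Car4* cluster alone *Adamts4* was at 78.8 and 96.9 CPM in WT telogen and 58.6 and 68.2 in the KO, and this gap was not tested.

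*Adamts1* was also called lower in immune-like cells, with 2 UMIs in the KO and a WT over KO ratio of 10.8 (95% counting interval 2.96 to 89.1). That call was lost with likely doublets removed, with all 6 libraries in the fit, and without WT telogen S1 (log2 fold change -3.35, adjusted p = 0.0905), WT telogen S2 (log2 fold change -3.12, adjusted p = 0.212) or KO S2 (log2 fold change -2.61, adjusted p = 0.0879). *Adamts1* was lower too in Schwann-like cells, at 563 and 616 CPM in WT telogen and 0 and 131 in the KO. This rests on 7 and 9 KO cells, of which those of KO S1 held no UMI. It was lost without WT telogen S1 (log2 fold change -3.35, adjusted p = 0.290) or S2 (log2 fold change -3.23, adjusted p = 0.486). In the same cells the Schwann markers summed to 12396 and 13428 CPM in WT telogen and 13406 and 2361 in the KO. The melanocyte markers summed to 101 and 132 in WT telogen and 0 and 1115 in the KO, whose part was not tested.

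A wider list of 65 genes of the same pathway was read beside the members. At anagen 1 of 228 tests passed, *Mmp12*, a macrophage elastase, in immune-like cells (log2 fold change 1.97 ± 0.23 SE, adjusted p = 0.0368). In the KO 27 of 205 tests were higher and 35 lower, against the 7.98% and 9.41% of all tests given above. The list of other inhibitors and clearance receptors, which also held the testican *Spock2*, was called in 7 of 17 tests, all higher. These calls came from 3 genes and do not show a rise of inhibitors as a class. Of these, *Spock2* was called in Artery, Vein, Lymph-Cap, Lymph-Col and fibroblast-like cells, and *Reck* and *Lrp1* in fibroblast-like cells alone. The MMPs were called in 3 higher and 7 lower of 20, the membrane ADAM sheddases in 1 higher and 8 lower of 68, and the ADAMTS proteases in 6 higher and 6 lower of 37.

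Single genes of this list moved in several vessels. *Spock2*, a testican proteoglycan, was at 14.2 and 14.8 CPM in WT telogen and 84.5 and 54.8 in KO Artery (log2 fold change 2.26 ± 0.30 SE, adjusted p = 0.000276), and was also higher in Vein, Lymph-Cap and Lymph-Col. *Mmp15*, a membrane-type MMP like *Mmp14*, was at 66.1 and 67.9 CPM in WT telogen and 3.81 and 10.4 in KO Capillary (log2 fold change -3.41 ± 0.40 SE, adjusted p = 9.93e-05), and was also lower in Artery (log2 fold change -2.77 ± 0.42 SE, adjusted p = 0.000659). *Adamts5*, an aggrecanase, was higher in Lymph-Cap, at 42.9 and 39.1 CPM in WT telogen and 149.5 and 185 in the KO (log2 fold change 2.01 ± 0.20 SE, adjusted p = 5.69e-05), and in Lymph-Col. In Vein *Adamts5* went the other way, at 43.7 and 38.9 CPM in WT telogen and 16.6 and 22.7 in the KO. *Furin*, the convertase that activates membrane-type MMPs, was higher in Artery, Capillary and EC cluster 3, and stood in Capillary at 67.1 and 54.5 CPM in WT telogen and 161 and 119 in the KO (log2 fold change 1.0 ± 0.22 SE, adjusted p = 0.00519).

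In fibroblast-like cells the wider list changed in both directions. *Mmp23* was at 183 and 171 CPM in WT telogen and 9.40 and 8.04 in the KO (log2 fold change -4.70 ± 0.32 SE, adjusted p = 4.68e-05), whereas *Mmp11* was at 5.69 and 8.09 in WT telogen and 40.7 and 98.5 in the KO (log2 fold change 3.03 ± 0.44 SE, adjusted p = 0.00106). *Reck*, a membrane-anchored MMP inhibitor, was at 27.2 and 26.3 CPM in WT telogen and 90.9 and 155 in the KO (log2 fold change 1.89 ± 0.28 SE, adjusted p = 0.00118). *Vcan*, the versican core protein that *Adamts1*, *Adamts4* and *Adamts9* cleave, was lower in fibroblast-like cells (log2 fold change -1.80 ± 0.38 SE, adjusted p = 0.00627) and in Artery (log2 fold change -3.09 ± 0.35 SE, adjusted p = 8.02e-05). The part of the fibroblast markers and stress genes in these values was not tested either.

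Genes most like each member were named by Pearson's r over the mean log2 CPM of 17 populations in WT libraries, among 8233 genes, as a description with points that share libraries. *Timp3* was most like *Rilpl1* (r = 0.956) and *Tcf7l2* (r = 0.956), *Timp4* like *Aqp7* (r = 0.945) and *Btnl9* (r = 0.945), and *Timp2* like *Nfatc2* (r = 0.906). *Mmp3* was most like *Cilp* (r = 0.993), *Mmp2* like *Vcan* (r = 0.901), *Mmp14* like *Tmed1* (r = 0.975), *Adamts4* like *Irgm1* (r = 0.913) and *Timp1* like *Stt3a* (r = 0.865). Among the members themselves the closest pairs were *Adamts1* with *Adamts4* (r = 0.875) and *Timp3* with *Adamts1* (r = 0.857).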

How the data were processed

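The authors deposited raw UMI counts per gene and barcode, obtained from 10x 3′ v3 libraries by Cell Ranger 6.0.1 with mm10. Seurat 4.0 is named in their processing notes. All barcodes deposited had at least 500 UMIs, and those with 200 to 5000 genes and under 10% mitochondrial UMIs were kept. Cells of the 6 libraries were clustered with scanpy 1.11.5 and leidenalg 0.10.2 on 3000 variable genes, without the members and their wider family, 30 components and 20 neighbours, with a correction between libraries, at resolution 0.6. A cluster was named from at least 3 markers at 2-fold or more and in at least 25% of its cells. Doublets were kept: the automatic threshold marked under 0.5% of cells in 5 libraries, and removing the top 5% there was an alternative.

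Counts were summed per library and population with at least 5 cells and tested by edgeR 4.0.16 (R 4.3.3) after filterByExpr and TMM, with Benjamini-Hochberg adjustment over all genes. DESeq2 1.42.0 was an alternative. With 2 mice per group, p-values measure the spread between these mice. The members, gene lists and tests were chosen with earlier results of these data known. All 10 members were read in every comparison, but members that were not called are not all named. Genes of the wider list were named only where called. Of the 2 genes most like each member, only some were named. Marker lists gave their results beside the values they touch. On simulated counts the step recovered planted changes. RefSeq windows were matched by symbol for 8 members and not for Mmp2 and Adamts4.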

Additional observations from a re-analysis of the deposited data

Results flagged for a closer look

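5 effects of the KO differed between cell lineages by edgeR's interaction test, with the mouse library as a block and 9 members tested in each comparison. Of all genes, 5.57% were called for perineurial-like cells and 19.8% for lymphatic ECs, each against blood ECs. Against blood ECs, the change from WT telogen to KO was lower in perineurial-like cells for *Adamts4*, by a log2 difference of -1.62, and for *Adamts9*, by -1.96. It was lower in lymphatic ECs for *Adamts4*, by -0.64, and for *Adamts9*, by -0.73, and higher there for *Mmp2*, by 2.53. The KO sums of perineurial-like cells came from 80 and 54 cells, with *Adamts4* far apart at 85.6 and 5.55 CPM in KO S1 and S2. The KO effect on *Adamts4* within perineurial-like cells was itself not called. In pooled blood ECs the KO libraries of *Adamts4* stood far apart, at 632 and 333 CPM, against 345 and 347 in WT telogen. *Mmp2* in lymphatic ECs rests on 5 and 3 UMIs in WT telogen and 13 and 41 in the KO. Its call was lost with DESeq2 and without WT telogen S2 or KO S2. The call of *Adamts4* was lost with DESeq2 in perineurial-like cells, and without WT telogen S1 or at the finer clustering in lymphatic ECs. The calls of *Adamts9* held under every alternative, but in perineurial-like cells the KO values rest on 9 and 3 UMIs, which all alternatives draw on. No group had enough libraries for a test of single samples standing apart.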

How the results depend on the processing

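No called value changed sign under any alternative. Counts of member calls moved as follows. At anagen, 1 member test was higher and 4 lower. The higher count was 5 with DESeq2, 12 without a filter on low counts, 0 with likely doublets removed and 4 to 8 with 1 library left out. The lower count was 10 without the filter, 1 at resolution 1.2, 1 without correction between libraries and 2 to 13 with 1 library left out. In the KO, with 16 higher and 14 lower, the counts without correction between libraries were 9 and 9, DESeq2 gave 9 lower, and leaving out 1 library gave 12 to 25 higher and 9 to 21 lower. Of the 30 KO calls of the main fit, DESeq2 kept 21, the finer clustering 22 and clusters made without correction between libraries 12. Of the 5 stage calls, DESeq2 kept 3, the finer clustering 2 and clusters without that correction 2. For pericyte-like cells against ECs, with 5 calls, leaving out 1 library gave 3 to 6. The stage effect compared between lineages, with 0 calls, gave 2 in perineurial-like and 1 in lymphatic cells without the filter, and up to 7 and up to 1 with 1 library left out. The KO effect in perineurial-like cells against blood ECs, with 2 calls, gave 5 with RLE size factors, 1 with DESeq2, 5 without the filter, 4 with doublets removed, 4 at resolution 1.2, 5 without correction between libraries and 2 to 4 with 1 library left out. The cause of these moves was not tested. The population with the highest WT level was the same for 7 to 10 of the 10 members under other cell filters and clusterings.

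Same-numbered libraries of 2 groups deviated with correlations of -0.156 to 0.157, so the numbers were not taken to pair mice. With the replicate block the stage counts were 8 higher and 7 lower, with crossed pairs 4 and 7, and the block shared 27 of 33 KO calls with the fit without it.

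Depth limits low members: in Schwann-like cells of the KO (7 and 9 cells) *Timp1*, *Adamts4* and *Adamts9* had 0 UMIs. The 95% counting interval of the WT telogen over KO ratio began at 1.38 for *Adamts4*, 1.13 for *Adamts9* and 0.719 for *Timp1*. These intervals cover counting error only. Members between 0 and 3 UMIs are given by counting ratios.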

Other observations

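Of 35 tests of proprotein convertases, which activate the precursors of several of these proteases, 6 were higher and 4 lower in the KO, against 7.98% and 9.41% of all tests. *Pcsk6* was at 149 and 156 CPM in WT telogen and 70.4 and 74.6 in KO Lymph-Cap (log2 fold change -1.08, edgeR adjusted p = 0.000889), and at 75.4 and 80.5 in WT telogen and 128 and 131 in KO Lymph-Col (log2 fold change 0.67, edgeR adjusted p = 0.0188). *Pcsk5* was at 138 and 147 CPM in WT telogen and 60.3 and 44.2 in KO Artery (log2 fold change -1.45, edgeR adjusted p = 0.000212). *Pcsk7* was at 38.9 and 48.0 CPM in WT telogen and 89.2 and 107 in KO Vein (log2 fold change 1.14, edgeR adjusted p = 0.00212).

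Membrane sheddases of the ADAM family were higher in 1 and lower in 8 of 68 tests, against the same shares of all tests. *Adam15* was at 223 and 235 CPM in WT telogen and 94.1 and 102 in KO Capillary (log2 fold change -1.43, edgeR adjusted p = 0.000131). *Adam17*, the sheddase of TNF that *Timp3* inhibits, was at 83.0 and 80.9 CPM in WT telogen and 22.2 and 11.1 in KO perineurial-like cells (log2 fold change -2.26, edgeR adjusted p = 0.000912), where *Timp3* was not called. These KO values of *Adam17* rest on 7 and 2 UMIs. As for the members, genotype, age, time since tamoxifen, strain, the Krt14-H2BGFP allele and the separate experiment cannot be told apart in these values.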
